A study of Mus musculus with 6 samples.

Results

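A set of 48 genes that are imprinted outside the Dlk1-Meg3 cluster was followed in mouse pancreatic islets that carried or lacked Paupar. Paupar is a long noncoding RNA whose gene neighbours Pax6, a master regulator of islet cells. The genes were taken by symbol from the deposited table, and all 48 of them were among its 53670 genes. By the allele described in mice, 23 are paternally expressed, 22 are maternally expressed, and 3 (Gnas, Grb10 and H13) use either allele depending on isoform or tissue. RNA was sequenced from islets of 6-week-old mice in 3 wild-type (WT, Paupar +/+) and 3 knockout (KO, Paupar -/-) libraries. Strain, the construction of the allele and whether islets of several animals were pooled are not stated in the labels used here.

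Genomic imprinting silences one parental copy of a gene through DNA methylation set in the egg or sperm and kept in the embryo. Many imprinted genes sit in clusters where a noncoding RNA or an insulator controls several neighbours, so that genes active on the maternal and on the paternal chromosome lie side by side. A large share of them act on growth, nutrient supply and hormone signalling, and in islets genes such as Gnas, Grb10, Plagl1 and Nnat have been tied to insulin secretion. The read counts used here do not separate the parental alleles, so the values below are total levels of both alleles and say nothing of the imprint itself.

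The libraries held 25733194 to 27285009 counts, and Paupar had 111 to 252 counts in WT and 0 to 4 in KO. KO replicate 1 stood apart from the other KO libraries in sex-linked transcripts. Xist, which coats the inactive X chromosome, was counted 1, 6 and 3 times in WT and 0, 1120 and 862 times in KO (replicates 1, 2 and 3). Where KO replicate 1 is left out below, only KO libraries high in Xist face WT libraries low in it. Genotype and sex-linked differences cannot be told apart in those values. Islet markers were present in all 6 libraries. The summed level of 8 beta cell markers was 215221 to 234015 CPM (a gene's counts relative to the total of its library, with totals scaled by edgeR's TMM factors) in WT and 277688 to 285800 in KO, and that of 7 alpha cell markers was 35200.4 to 45521 in WT and 31839 to 36951 in KO. Of the alpha cell markers 4 of 7 were lower in KO without overlap (12.1% of all tested genes), although the sums overlapped. The 9 endothelial markers summed to 382.0 to 476.5 CPM in WT and 542.2 to 568.6 in KO. Of these 7 were higher at an unadjusted p below 0.05 (6.99% of all tested genes). The libraries also differed in acinar RNA. The 8 acinar markers found summed to 62769.4, 33559.6 and 19861.4 CPM in WT and 38737.6, 27588.4 and 14621.0 in KO (replicates 1, 2 and 3). All 8 had negative fold changes (49.7% of all tested genes), 0 of them at an unadjusted p below 0.05. In whole islets fewer cells of a type and less RNA per cell cannot be told apart, and the part of cell makeup in the results below was not tested. Separate animals for the replicates are not stated in the labels, so each p-value measures the spread between these libraries, which may be technical.

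None of the imprinted genes outside the Meg3 cluster passed the test between genotypes. Of the 48, 39 passed the filter on low counts, and in edgeR at an adjusted p below 0.05 there were 0 lower and 0 higher in KO. Over all 15915 tested genes the share called was 0.170%, all of it lower. With an unadjusted p below 0.05, 5 members were lower (Gnas, Grb10, Kcnq1ot1, Zim1 and Mest) and 3 were higher (Snrpn, Commd1 and Copg2). That is 20.5% of the tested members, against 16.4% of all tested genes (9.38% lower and 6.99% higher). The same 8 members were the ones whose WT and KO libraries did not overlap, again 20.5%, against 23.4% over all genes. The count of higher members was 0 without WT replicate 1 (4.50% of all tested genes higher), 0 without KO replicate 3 (4.41%), 1 without WT replicate 2 (4.76%), 1 without KO replicate 2 (4.15%) and 5 without WT replicate 3 (9.18%). A covariate for Xist leaves KO replicate 1 alone against WT. The median log2 fold change of the members was then -0.11, against -0.00238 over all tested genes. DESeq2, which called 3.09% of its genes lower and 1.21% higher, called 3 members lower, namely Gnas (adjusted p = 0.000297), Grb10 (adjusted p = 0.0108) and Zim1 (adjusted p = 0.0497). With limma-voom 0 members were called, but so were 0 of all tested genes. The log2 fold changes of KO over WT (written KO/WT log2 change below, with the standard error, SE, and the edgeR p adjusted over all tested genes) lay between -0.5 and 0.5 for 35 of 39 members. The same held for 13987 of all 15915 tested genes. The median of the members was -0.01, against 0.00 over all tested genes.

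**Figure D1:**
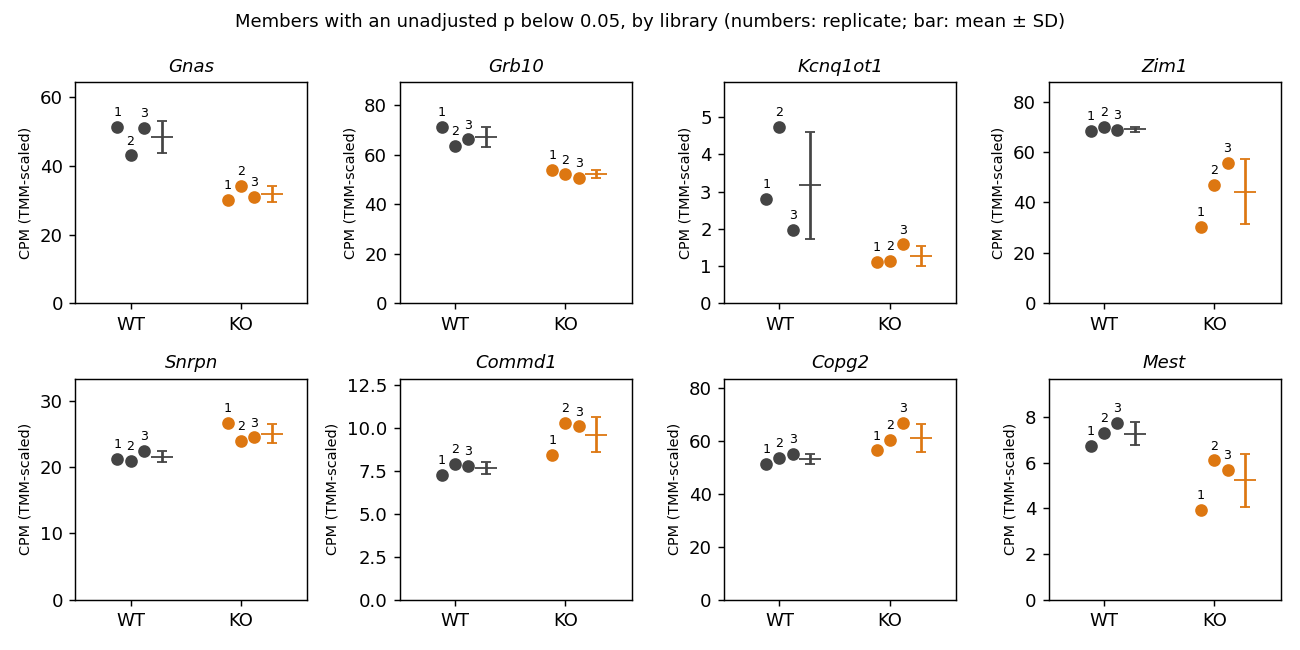
Level in CPM (TMM-scaled, vertical axis from 0) of the 8 members with an unadjusted p below 0.05, with 1 point per library numbered by replicate and a bar for mean ± SD (n = 3) in WT (grey) and KO (orange). In each panel the WT and KO points do not overlap, and none of the 8 passed at an adjusted p below 0.05 in edgeR.

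Levels were compared between genes as CPM per kilobase of exonic length. The most abundant members are classed as paternally expressed, Ddc only from 1 isoform in the heart. Slc38a4, an amino acid transporter gene, was at 109 CPM per kb over all 6 libraries and Peg3, a zinc finger gene, at 87.8. Ddc, which encodes the enzyme that makes dopamine and serotonin from their precursors, was at 71.6. Next came Cd81, a tetraspanin gene, at 43.5 and Ndn, which encodes the MAGE-family protein necdin, at 39.8. At the other end, 9 members did not pass the low-count filter. Klf14, a zinc finger gene, was at 0 counts in every library, which allows up to 0.117 CPM. H19, the fetal growth-restraining noncoding RNA, had 1, 0 and 0 WT counts and 3, 0 and 0 KO counts. Phlda2, a placental growth regulator, had 2 counts in 1 WT library and 0 in the other 5. Ascl2 (a trophoblast transcription factor), Magel2 and Mkrn3 (both of the Snrpn domain), Peg12 (a FRAT-family gene of the same domain), Calcr (the calcitonin receptor) and Slc22a3 (an organic cation transporter) had 7 to 35 counts over all 6 libraries. Kcnq1ot1 and Peg13 had no exonic length in the annotation used and stay out of this order. Depth at these 9 genes cannot show a difference between genotypes.

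**Figure D2:**
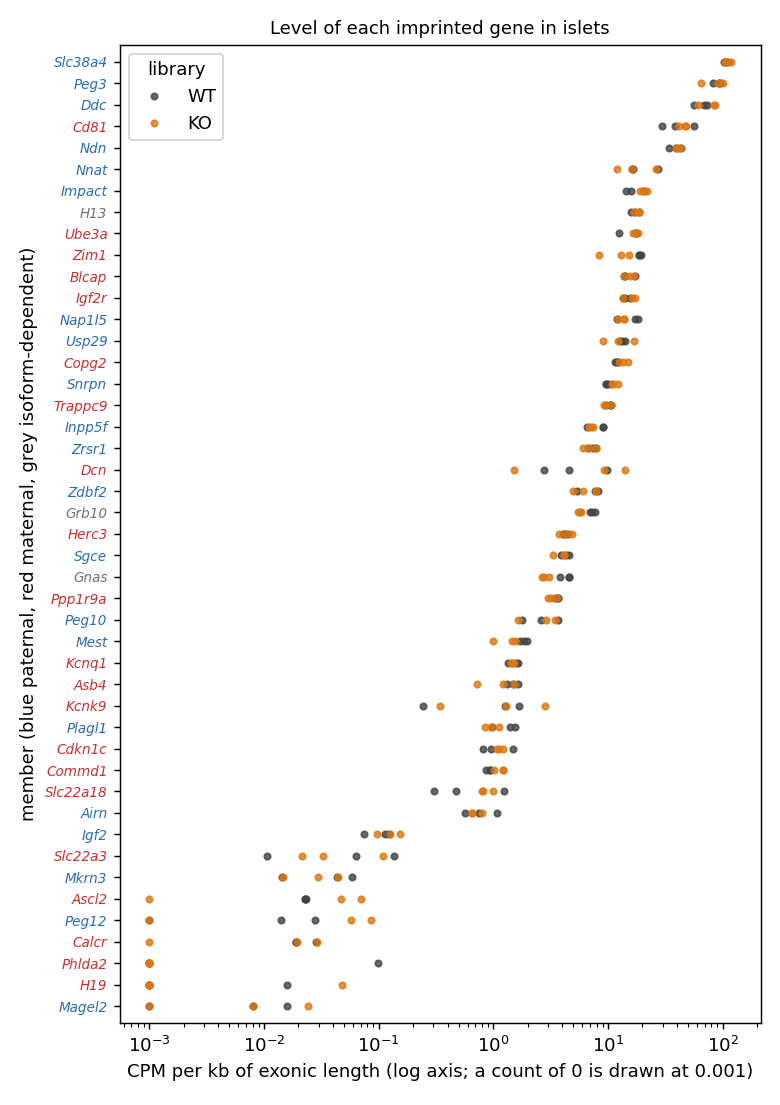
Level of the 45 members with an annotated length and at least 1 count, as CPM per kb of exonic length on a log axis, with 1 point per library (WT grey, KO orange) and names coloured by expressed allele. The genes span from about 0.00940 (Magel2) to 109 (Slc38a4) CPM per kb, and for most genes the WT and KO points lie on top of each other.

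Gnas and Grb10 had the smallest p-values among the members. Gnas encodes the stimulatory G protein subunit that couples hormone receptors to cyclic AMP, and its cluster also makes isoforms read from the maternal or the paternal copy alone. The gene (chromosome 2, 174109821 to 174172245 in mm9) stood at 51.5, 43.1 and 51.0 CPM in WT and 30.0, 34.3 and 31.1 CPM in KO, in the order of replicates 1, 2 and 3 as everywhere below. Each KO library was below each WT library, with 48.6 ± 4.74 CPM in WT and 31.8 ± 2.24 in KO (mean ± SD, n = 3, KO/WT log2 change -0.61, SE 0.10, adjusted p = 0.084). With offsets for exonic length and GC content its log2 fold change was -0.27 (adjusted p = 0.421). Its exons share 13.1% of their length with AF085738 and 8.83% with the noncoding gene Nespas, both on the opposite strand. Whether counting used strand is not stated, so reads of these genes may be mixed or left out.

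Grb10 encodes an adaptor that restrains insulin and IGF receptor signalling, with maternal expression in most tissues and paternal expression in neurons. It lies on chromosome 11 (11830511 to 11938686) and was at 71.3, 63.4 and 66.1 CPM in WT and 53.8, 52.0 and 50.5 in KO, and no KO library reached the lowest WT library. The groups averaged 66.9 ± 4.02 CPM in WT and 52.1 ± 1.64 in KO (KO/WT log2 change -0.36, SE 0.07, adjusted p = 0.112), and with the length and GC offsets the log2 fold change was -0.22 (adjusted p = 0.292). Ddc, its neighbour, is imprinted from 1 isoform in the heart. It was at 319.6, 302 and 243 CPM in WT and 268, 375 and 364 in KO, with overlapping groups (KO/WT log2 change 0.22, SE 0.16, adjusted p = 0.546).

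In the Peg3 domain of chromosome 7, the maternally expressed gene stood apart between genotypes and its paternally expressed neighbours did not. Zim1, the maternally expressed zinc finger gene (6628154 to 6649161), was at 68.2, 70.1 and 68.6 CPM in WT and 30.3, 47.0 and 55.5 in KO. The WT libraries lay close together while the KO libraries spread widely below them, KO replicate 1 being the lowest, and the means were 68.9 ± 0.984 CPM in WT and 44.3 ± 12.9 in KO (KO/WT log2 change -0.64, SE 0.20, adjusted p = 0.214). Without KO replicate 1 the log2 fold change was -0.43. The paternally expressed Peg3 itself (6656603 to 6683132), a zinc finger gene that restrains growth and cell survival signals, was at 1262, 1231 and 1106 CPM in WT and 869, 1209.7 and 1340.4 in KO (KO/WT log2 change -0.07, SE 0.17, adjusted p = 0.866). Usp29, a deubiquitinase-family gene read in the other direction from the same start region, was at 36.9, 33.3 and 34.9 CPM in WT and 23.5, 31.9 and 44.4 in KO (KO/WT log2 change -0.08, SE 0.21, adjusted p = 0.894). Both paternally expressed genes had overlapping groups, and both were lowest in KO replicate 1 and highest in KO replicate 3. Without KO replicate 1 both were on the other side of 0, Peg3 at 0.09 and Usp29 at 0.12. That comparison holds only KO libraries high in Xist, against WT libraries low in it.

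The start regions of the Peg3 domain are shown because Peg3 and Usp29 share one while Zim1 has its own, and those of Mest and Grb10 because these members were also below WT in each KO library. Gnas and Kcnq1ot1, below WT in each KO library too, are not shown. Each line gives the 250 bases before the transcript start in RefSeq (build GRCm38.p6, not the mm9 of the gene positions above), 5′ to 3′ on the gene's strand. Capitals mark TGCCGC or its reverse complement GCGGCA, the letters that the imprint-keeping zinc finger protein ZFP57 binds when they are methylated. Where RefSeq has several starts (Mest and Grb10), the one with the most such matches is shown, and among equals a CpG-rich one. The windows are chr7:6730420-6730669 on the minus strand for Peg3, chr7:6696433-6696682 on the minus strand for Zim1, chr6:30737800-30738049 on the plus strand for Mest and chr11:12037421-12037670 on the minus strand for Grb10.
Peg3: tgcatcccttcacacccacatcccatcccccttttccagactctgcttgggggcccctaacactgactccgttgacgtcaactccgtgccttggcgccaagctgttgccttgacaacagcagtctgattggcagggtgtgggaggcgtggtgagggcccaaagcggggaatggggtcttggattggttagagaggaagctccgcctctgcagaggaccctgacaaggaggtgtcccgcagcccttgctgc
Zim1: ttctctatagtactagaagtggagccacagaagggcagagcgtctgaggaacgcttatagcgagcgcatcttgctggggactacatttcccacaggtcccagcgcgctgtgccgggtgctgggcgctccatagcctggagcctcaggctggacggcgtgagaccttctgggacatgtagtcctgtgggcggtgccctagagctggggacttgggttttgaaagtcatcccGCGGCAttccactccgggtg
Mest: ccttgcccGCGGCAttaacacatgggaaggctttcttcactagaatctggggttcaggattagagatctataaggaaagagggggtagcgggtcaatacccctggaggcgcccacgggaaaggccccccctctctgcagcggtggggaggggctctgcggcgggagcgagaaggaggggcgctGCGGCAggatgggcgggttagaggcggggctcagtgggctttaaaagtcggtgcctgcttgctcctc
Grb10: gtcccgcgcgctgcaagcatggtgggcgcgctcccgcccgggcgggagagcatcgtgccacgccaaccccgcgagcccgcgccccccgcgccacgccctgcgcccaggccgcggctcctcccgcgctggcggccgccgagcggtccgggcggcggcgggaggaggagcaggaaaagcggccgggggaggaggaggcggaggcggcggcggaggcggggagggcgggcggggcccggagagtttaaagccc

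Of the Peg3 window, 163 bases lie also in the 250 bases before the start of Usp29 on the plus strand. The Zim1 window holds 1 match, the Mest window 2, and the Peg3 and Grb10 windows hold 0. The Mest window was picked for its matches, and another Mest start has 0. Grb10 has the densest CpG content of these, with 40 CpG dinucleotides, against 14 in Zim1, 14 in Mest and 8 in Peg3. The Grb10 window was picked for its CpG content, and the other Grb10 start has 8. Start windows were matched for 37 of the 48 members, and 7 of these genes (18.9%) had at least 1 match on either strand: Zim1, Mest, Zdbf2, Nap1l5, Plagl1, Copg2 and Calcr. Over all 27025 genes of the promoter table the share was 9.84%. Counted by window, 14.0% of the member windows and 8.68% of all windows had a match. The windows of Gnas and Kcnq1ot1 had 0 matches. Taking each gene's most CpG-rich window, the median was 12 CpG dinucleotides for members and 6 for all genes. These are letters in a window and show neither binding nor methylation.

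The listed members of the Igf2 and Kcnq1 domains were near silent or low in these islets, apart from Cd81. Igf2, the fetal growth factor, had 18, 11 and 17 WT counts and 22, 18 and 14 KO counts (KO/WT log2 change 0.26, SE 0.34, adjusted p = 0.745). Cdkn1c, which encodes the cell cycle inhibitor p57, had 42, 50 and 77 WT counts and 57, 55 and 63 KO counts (KO/WT log2 change 0.08, SE 0.27, adjusted p = 0.916). The groups of both genes overlapped.

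Kcnq1ot1, the paternally expressed noncoding RNA that silences this domain in cis, had the most negative fold change of the members. It was at 2.80, 4.75 and 1.96 CPM in WT and 1.10, 1.14 and 1.58 in KO, from 75, 128 and 53 and 29, 30 and 42 counts. Every KO library was below every WT library, but the WT libraries themselves differed more than 2-fold, and the fold change did not pass (KO/WT log2 change -1.31, SE 0.37, adjusted p = 0.188). Without WT replicate 2, the highest, the log2 fold change was -0.90. Kcnq1, the potassium channel gene that Kcnq1ot1 is antisense to, averaged 4.72 ± 0.476 CPM in WT and 4.54 ± 0.142 in KO (KO/WT log2 change -0.06, SE 0.15, adjusted p = 0.888), so only 1 of this sense and antisense pair stood apart between the groups.

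Cd81, a membrane tetraspanin gene imprinted in placenta, was at 66.6, 87.3 and 128 CPM in WT and 107, 108 and 95.4 in KO, with WT replicates spanning the KO range (KO/WT log2 change 0.14, SE 0.22, adjusted p = 0.798). The transporter gene Slc22a18 had 14, 57 and 22 WT counts and 37, 36 and 45 KO counts, and the WT libraries lay on both sides of the KO libraries (KO/WT log2 change 0.37, SE 0.50, adjusted p = 0.755).

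Igf2r, which encodes the receptor that clears IGF2 and sorts lysosomal enzymes, was well expressed at 127, 133 and 148 CPM in WT and 127, 164 and 152 in KO (KO/WT log2 change 0.12, SE 0.11, adjusted p = 0.643). Airn, the paternally expressed antisense RNA that silences Igf2r, had 54, 104 and 73 WT counts and 62, 75 and 62 KO counts (KO/WT log2 change -0.18, SE 0.28, adjusted p = 0.785). Groups overlapped for both. Plagl1, a paternally expressed zinc finger transcription factor gene whose overexpression causes transient neonatal diabetes in humans, was at 11.2, 7.17 and 10.3 CPM in WT and 6.16, 6.91 and 8.14 in KO. WT replicate 2 lay within the KO range (KO/WT log2 change -0.43, SE 0.20, adjusted p = 0.343).

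In the Snrpn domain, the region of the Prader-Willi and Angelman syndromes in humans, Snrpn stood a little higher in KO. Snrpn encodes a spliceosomal Sm protein (chromosome 7, 67127388 to 67285105) and was at 21.3, 21.0 and 22.5 CPM in WT and 26.7, 24.0 and 24.5 in KO. Each KO library was above each WT library, with 21.6 ± 0.778 CPM in WT and 25.1 ± 1.45 in KO (KO/WT log2 change 0.22, SE 0.08, adjusted p = 0.265), and with the length and GC offsets the log2 fold change was 0.12. Ndn was at 64.9, 56.1 and 71.5 CPM in WT and 67.5, 70.4 and 64.4 in KO (KO/WT log2 change 0.07, SE 0.10, adjusted p = 0.765). Ube3a, the maternally expressed ubiquitin ligase gene, is imprinted in neurons and was at 90.4, 63.8 and 89.5 CPM in WT and 84.0, 93.9 and 90.0 in KO (KO/WT log2 change 0.14, SE 0.14, adjusted p = 0.667). For Ndn and Ube3a the groups overlapped, and WT replicate 2 was the lowest of the 6 libraries in both.

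The Mest and Copg2 genes of chromosome 6, which meet tail to tail, differed in opposite directions. Mest, a paternally expressed gene for a hydrolase-fold protein of the endoplasmic reticulum (30673547 to 30698457), was at 6.73, 7.32 and 7.74 CPM in WT and 3.92, 6.10 and 5.69 in KO. No KO library reached WT, and KO replicate 1 was the lowest (KO/WT log2 change -0.47, SE 0.19, adjusted p = 0.292), with -0.30 when it was left out. Copg2, which encodes a coatomer subunit of Golgi vesicles (30697554 to 30846794), was at 51.3, 53.4 and 55.0 CPM in WT and 56.3, 60.3 and 66.7 in KO, each KO library above each WT library (KO/WT log2 change 0.20, SE 0.08, adjusted p = 0.29). The 2 genes share 904 exonic bases on opposite strands, 23.0% of Mest and 20.2% of Copg2, and reads from there cannot be assigned to one of them without strand.

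The Peg10 domain, which lies nearer the start of chromosome 6 than Mest, did not separate the genotypes. Peg10, derived from a retrotransposon, was at 24.5, 11.9 and 17.4 CPM in WT and 11.0, 19.4 and 23.0 in KO (KO/WT log2 change -0.01, SE 0.33, adjusted p = 0.992). Sgce, the epsilon-sarcoglycan gene that starts beside it, was at 12.1, 14.1 and 13.3 CPM in WT and 10.2, 12.8 and 12.7 in KO (KO/WT log2 change -0.15, SE 0.13, adjusted p = 0.611). KO replicate 1 was the lowest library for both genes, and the other KO libraries lay within the WT range.
The maternally expressed Asb4, a ubiquitin ligase adaptor gene, was at 6.50, 5.16 and 5.81 CPM in WT and 2.85, 4.81 and 5.99 in KO (KO/WT log2 change -0.36, SE 0.28, adjusted p = 0.568). Ppp1r9a, which encodes the actin-binding protein neurabin, was at 39.8, 42.8 and 43.0 CPM in WT and 34.6, 37.2 and 41.7 in KO (KO/WT log2 change -0.14, SE 0.09, adjusted p = 0.468). KO replicate 1 was again the lowest for both, and leaving it out gave -0.11 for Asb4 and -0.08 for Ppp1r9a.

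Several paternally expressed genes are retrogenes or short genes that lie inside an intron of a host gene with maternal or biallelic expression. Nnat, whose small membrane protein is needed for normal insulin processing in beta cells, was at 49.5, 30.2 and 29.8 CPM in WT and 29.8, 22.0 and 48.4 in KO (KO/WT log2 change -0.13, SE 0.32, adjusted p = 0.879). Its host Blcap, a gene for a small membrane protein, was at 42.8, 42.4 and 52.0 CPM in WT and 47.3, 41.7 and 51.7 in KO (KO/WT log2 change 0.04, SE 0.12, adjusted p = 0.908). Nnat spanned 22.0 to 49.5 CPM with high and low libraries in both groups, while Blcap stayed between 41.7 and 52.0.
Nap1l5, a nucleosome assembly protein-like retrogene, was at 34.9, 22.7 and 32.8 CPM in WT and 26.4, 26.4 and 23.1 in KO (KO/WT log2 change -0.25, SE 0.17, adjusted p = 0.501). Its host Herc3, a ubiquitin ligase gene, was at 28.7, 31.9 and 30.1 CPM in WT and 26.5, 30.5 and 34.7 in KO (KO/WT log2 change 0.02, SE 0.11, adjusted p = 0.963). Neither separated the groups.
Zrsr1, a retrogene for a splice-site factor, was at 24.3, 21.8 and 26.0 CPM in WT and 25.6, 19.9 and 22.6 in KO (KO/WT log2 change -0.08, SE 0.12, adjusted p = 0.771). Its host Commd1, which acts in copper handling and endosomal sorting (chromosome 11, 22734744 to 22882382), was at 7.29, 7.91 and 7.81 CPM in WT and 8.44, 10.3 and 10.1 in KO (KO/WT log2 change 0.32, SE 0.12, adjusted p = 0.273). Each KO library was above each WT library for Commd1 and the groups overlapped for Zrsr1. In the annotation 29.2% of the exonic length of Commd1 is shared with the neighbouring gene B3gnt2.
H13, the signal peptide peptidase gene that hosts another imprinted retrogene, was at 169, 157 and 143 CPM in WT and 169, 169 and 152 in KO (KO/WT log2 change 0.06, SE 0.09, adjusted p = 0.753). Inpp5f, a phosphoinositide phosphatase gene with a paternally expressed short isoform, was at 74.7, 55.1 and 75.6 CPM in WT and 59.8, 61.9 and 56.9 in KO (KO/WT log2 change -0.20, SE 0.13, adjusted p = 0.482). For both genes the groups overlapped.

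Peg13, a paternally expressed noncoding RNA inside Trappc9, was at 189, 176 and 214 CPM in WT and 198, 279.6 and 188 in KO (KO/WT log2 change 0.20, SE 0.16, adjusted p = 0.585). Trappc9, a vesicle-tethering subunit gene, was at 67.0, 61.6 and 67.6 CPM in WT and 58.9, 67.2 and 60.6 in KO (KO/WT log2 change -0.07, SE 0.08, adjusted p = 0.691). KO replicate 2 alone lay above WT for Peg13. Kcnk9, the potassium channel gene of the same cluster, had 54, 41 and 8 WT counts and 41, 90 and 11 KO counts and was low in 1 library of each group (KO/WT log2 change 0.49, SE 0.84, adjusted p = 0.81).

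Among the members that stand alone, Impact, which restrains the GCN2 branch of the amino acid starvation response, was at 54.8, 49.1 and 71.1 CPM in WT and 65.8, 69.7 and 74.7 in KO (KO/WT log2 change 0.26, SE 0.14, adjusted p = 0.402). Zdbf2, a zinc finger gene, was at 97.7, 67.4 and 104 CPM in WT and 62.9, 76.5 and 99.1 in KO (KO/WT log2 change -0.17, SE 0.21, adjusted p = 0.727). WT replicate 3 lay within the KO range for Impact, and KO libraries lay within or below the WT range for Zdbf2.
Slc38a4 was at 453, 426 and 414 CPM in WT and 434, 481 and 422 in KO, with overlapping groups (KO/WT log2 change 0.05, SE 0.09, adjusted p = 0.819). Dcn, which encodes the fibroblast matrix protein decorin, varied most between libraries of a genotype, at 5.42, 8.80 and 18.9 CPM in WT and 27.5, 18.0 and 2.94 in KO (KO/WT log2 change 0.55, SE 0.76, adjusted p = 0.764). The 9 stellate cell and fibroblast markers summed to 83.1, 137.0 and 173.8 CPM in WT and 133.2, 188.4 and 81.0 in KO, all 9 being present in each library. None of the 9 is Dcn itself. The libraries with the smallest sums, WT replicate 1 and KO replicate 3, were also the lowest in Dcn, and the part of these cells in the Dcn level was not tested.

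**Figure D3:**
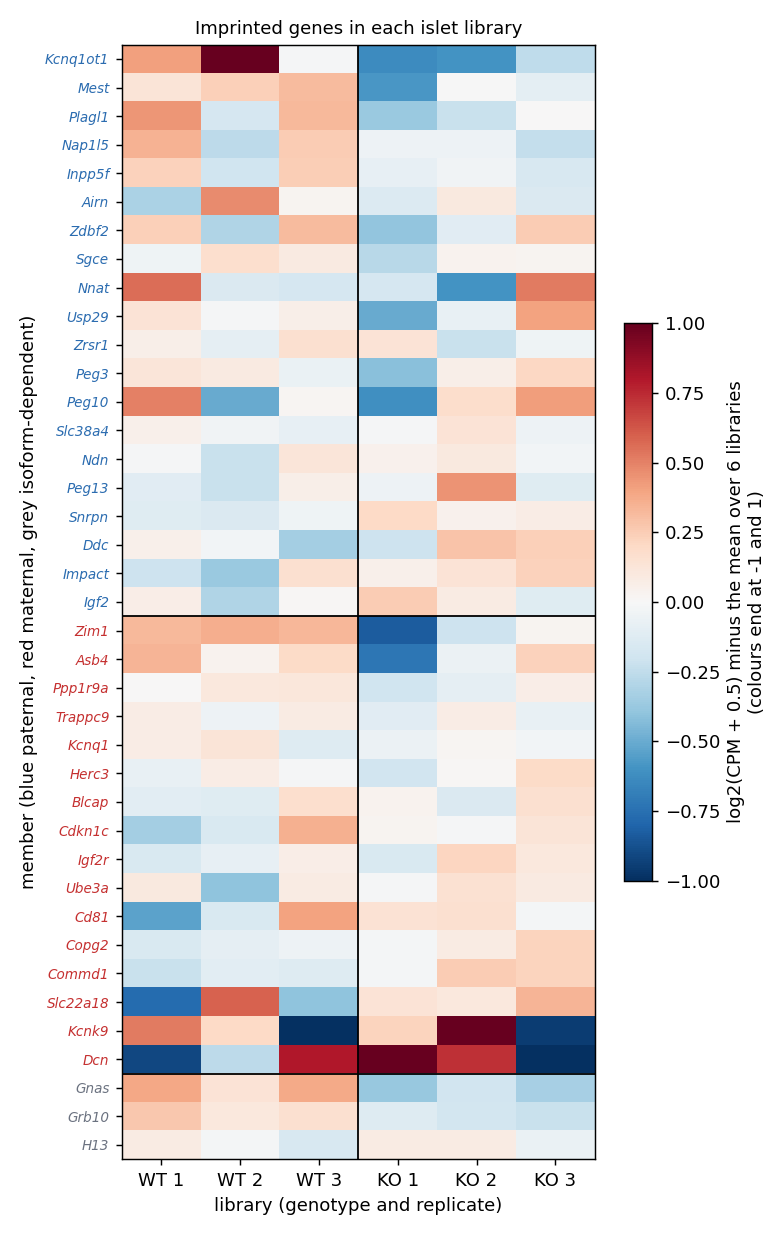
Each row is 1 of the 39 tested members and each column 1 library, coloured by log2(CPM + 0.5) minus the gene's mean over 6 libraries, with paternally expressed genes on top, maternally expressed genes in the middle and Gnas, Grb10 and H13 at the bottom. KO 1 (KO replicate 1) holds the lowest value in 15 of the 39 rows, and Dcn and Kcnk9 vary most between libraries of the same genotype.

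KO replicate 1 was the lowest of the 6 libraries for 15 of the 39 tested members (38.5%), while it was the lowest for 15.8% of all tested genes. The 15 were Peg3, Usp29 and Zim1 of the Peg3 domain, Mest, Peg10, Sgce, Ppp1r9a and Asb4 of chromosome 6, and Gnas, Kcnq1ot1, Plagl1, Herc3, Igf2r, Trappc9 and Zdbf2. Both parental classes were among them, with 8 of 20 paternally and 6 of 16 maternally expressed genes. Together the 48 genes took 0.362%, 0.356% and 0.365% of the WT library counts and 0.295%, 0.365% and 0.368% of the KO library counts, with Peg3 the largest single part. This is the KO library whose sex-linked transcripts matched WT, and the part of sex in the pattern was not tested.

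By parental allele, 20 paternally and 16 maternally expressed members were tested. Of the paternally expressed genes 13 had negative and 7 positive fold changes, with a median of -0.08. Of the maternally expressed genes 5 had negative and 11 positive fold changes, with a median of 0.10, against a median of 0.00 over all tested genes. Those with imprinting described across many tissues had medians of -0.08 (18 paternally expressed) and -0.14 (4 maternally expressed), so the positive median of the maternal class came from its 12 genes whose imprinting is limited to some tissues or isoforms (median 0.14). The maternal median was 0.00 without WT replicate 2 and -0.01 without WT replicate 1, and the paternal one was 0.02 without KO replicate 1.

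**Figure D4:**
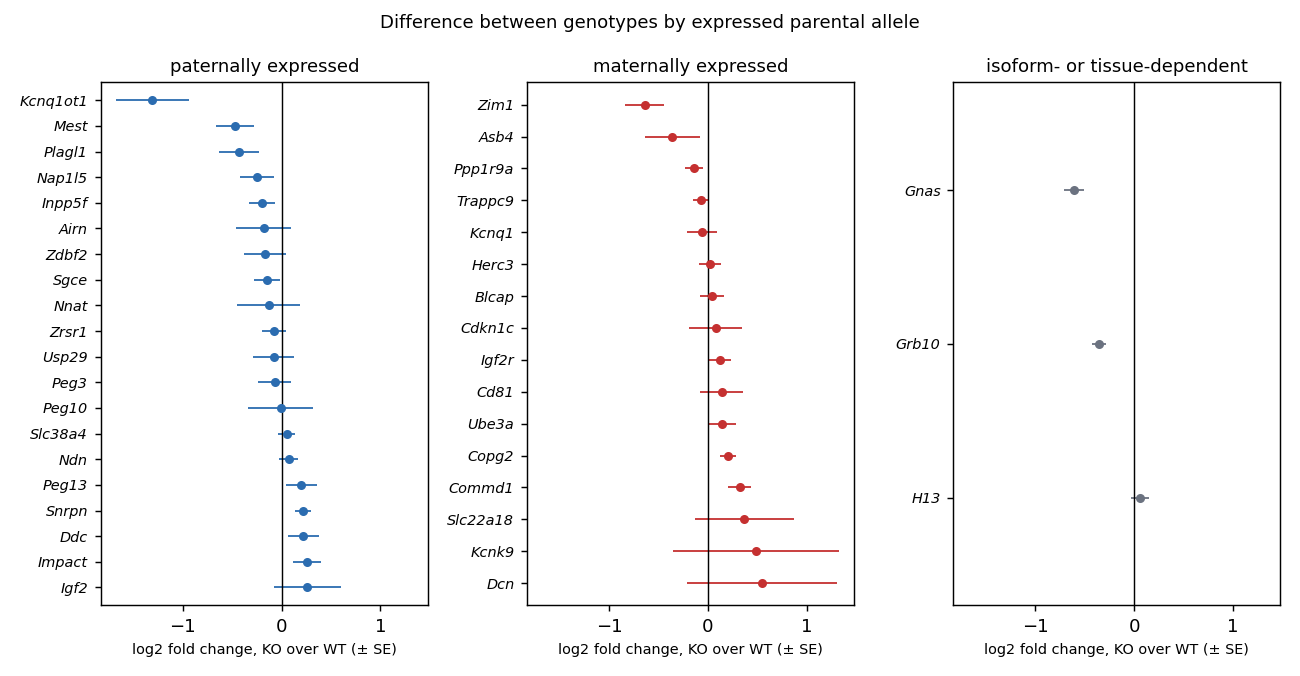
Log2 fold change of KO over WT (horizontal axis, bars are ± SE from edgeR, n = 3 per group) for the 39 tested members, in panels by expressed allele. Paternally expressed genes run from -1.31 (Kcnq1ot1) to 0.26 (Igf2 and Impact), maternally expressed genes from -0.64 (Zim1) to 0.55 (Dcn), and most bars cross or lie near 0.

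The ratio of a paternally to a maternally expressed neighbour within a library needs no scaling between libraries, and it was taken as log2 of counts with 0.5 added for 11 pairs. For 4 pairs the WT and KO libraries did not overlap, each with a two-sided exact permutation p = 0.1, the smallest that 3 against 3 libraries can give, and 0.275 after Benjamini-Hochberg adjustment over the 11 pairs. Peg3 over Zim1 was at 4.21, 4.13 and 4.01 in WT and 4.84, 4.68 and 4.59 in KO, a difference of 0.59 that was 0.52 without KO replicate 1. Mest over Copg2 was at -2.93, -2.86 and -2.83 in WT and -3.84, -3.30 and -3.55 in KO, a difference of -0.69. In both pairs the 3 WT libraries lay close together.
Kcnq1ot1 over Cdkn1c was at 0.83, 1.35 and -0.53 in WT and -0.96, -0.86 and -0.58 in KO, so that WT replicate 3 lay beside the KO values. Peg10 over Asb4 was at 1.91, 1.20 and 1.58 in WT and 1.94, 2.01 and 1.94 in KO, with WT replicate 1 just below KO, and the difference of 0.40 was 0.22 without WT replicate 2. The other 7 pairs overlapped, with differences of -0.41 (Zrsr1 over Commd1) to 0.26 (Peg13 over Trappc9) and exact permutation p-values of 0.2 to 0.9. Igf2 over H19, which rests on counts of 0 to 3 for H19, was at a difference of -0.18.

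**Figure D5:**
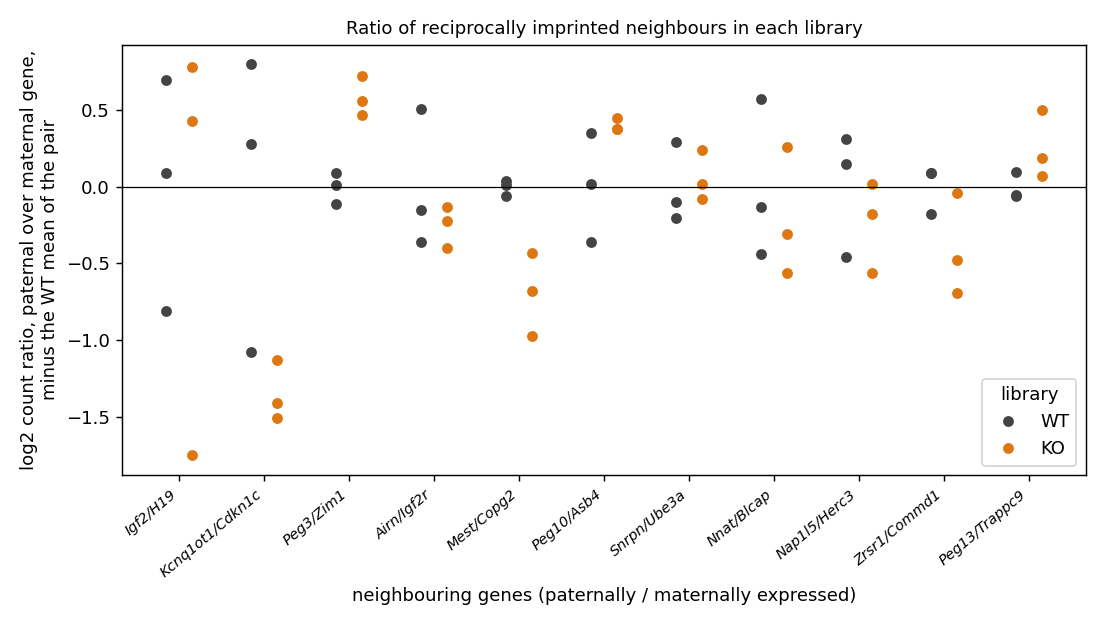
Log2 ratio of the counts of a paternally expressed gene to those of its maternally expressed neighbour, minus the WT mean of that pair (vertical axis), with 1 point per library (WT grey, KO orange) for 11 pairs. Peg3/Zim1 lies above and Mest/Copg2 below the WT points in all 3 KO libraries, with Kcnq1ot1/Cdkn1c and Peg10/Asb4 separated by a small gap.

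The listed imprint maintenance factors, which include DNA methylation and chromatin genes, had negative fold changes in 20 of 21 tested cases (49.7% of all tested genes). Of 24 listed factors 21 were tested in edgeR and 0 were called (0.170% of all tested genes). DESeq2 called 5, all lower, where it called 3.09% of its genes lower. With an unadjusted p below 0.05 there were 13 on the lower side (61.9%, against 9.38% of all tested genes) and 0 on the higher side. The median log2 fold change was -0.22. The list was chosen with earlier results of these data known, so these shares only describe it and were not tested. The largest differences were those of Tet2 and Tet3, genes of the TET enzymes that oxidise methylcytosine. Tet2 was at 21.0, 22.1 and 15.6 CPM in WT and 7.04, 7.67 and 9.19 in KO (KO/WT log2 change -1.30, SE 0.17, adjusted p = 0.0557). The KO/WT log2 change was -0.90 (SE 0.12, adjusted p = 0.0623) for Tet3 and -0.60 (SE 0.14, adjusted p = 0.151) for Tet1. Among the keepers of imprints, Trim28, the corepressor that ZFP57 and ZFP445 recruit, averaged 118 ± 0.508 CPM in WT and 106 ± 1.77 in KO (KO/WT log2 change -0.15, SE 0.05, adjusted p = 0.252). The change was -0.17 (SE 0.06, adjusted p = 0.278) for Zfp445 and -0.38 (SE 0.10, adjusted p = 0.162) for the H3K9 methyltransferase gene Setdb1. It was -0.63 (SE 0.16, adjusted p = 0.165) for the de novo methyltransferase gene Dnmt3a. The maintenance methyltransferase gene Dnmt1, at -0.25 (SE 0.18, adjusted p = 0.553), had overlapping groups and an unadjusted p of 0.221. The other 6 factors lower at an unadjusted p below 0.05 were, as log2 changes, the chromatin regulators Arid4b at -0.43 (SE 0.10), Arid4a at -0.29 (SE 0.08), Ehmt1 at -0.28 (SE 0.08) and Ehmt2 at -0.22 (SE 0.07), the insulator protein gene Ctcf at -0.15 (SE 0.06) and Rbbp6 at -0.18 (SE 0.07). Zfp57 itself had 2, 6 and 5 WT counts and 2, 0 and 3 KO counts. With a covariate for Xist, which leaves KO replicate 1 alone against WT, the median log2 fold change of the factors was -0.23. The count of 13 lower factors at an unadjusted p below 0.05 was 8 without KO replicate 1 (8.18% of all tested genes). It was 9 under the offsets for length and GC (6.50%). Leaving out the other libraries gave 9 without WT replicate 1 (6.36%), 8 without WT replicate 2 (7.10%) and 8 without WT replicate 3 (11.57%). It gave 8 without KO replicate 2 (6.54%) and 11 without KO replicate 3 (8.07%).

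In the Dlk1-Meg3 cluster, which is imprinted by the same kind of mark, 5 of 7 listed genes were tested and 1, the maternally expressed noncoding RNA Meg3, was called lower in edgeR (KO/WT log2 change -2.21, SE 0.17, adjusted p = 0.0364), where 0.170% of all tested genes were called. With an unadjusted p below 0.05 there were 3 lower (60.0%, against 9.38% of all tested genes). These were Meg3 and the noncoding RNAs Mirg (KO/WT log2 change -1.60, SE 0.22, adjusted p = 0.0669) and Rian (KO/WT log2 change -0.27, SE 0.10, adjusted p = 0.268). DESeq2 called 2 of 6 genes of the cluster lower, where it called 3.09% of its genes lower. With the replicate block, limma-voom or the length and GC offsets 0 genes of the cluster were called, and so were 0 of all tested genes. Leaving out 1 library, 1 gene of the cluster was called without WT replicate 3, where 89 of all genes were called. It was 0 without KO replicate 1 (5 of all genes) and 0 without each other library (0 of all genes). The difference between this cluster and the other imprinted genes was not tested.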

How the data were processed

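The authors deposited raw read counts, whole numbers per gene and not normalized, for 6 libraries, and 0 columns were left over. Build mm9 and, as tools, HISAT2 2.1.0, CASAVA 1.8.2, DESeq2 and HTSeq are listed in the submitters' processing notes. For the counting, annotation and strand setting are not given in the sources here. Counts were filtered with filterByExpr (15915 genes), scaled by TMM and tested in R 4.3.3 with edgeR 4.0.16 (quasi-likelihood F-test, Benjamini-Hochberg adjustment over all tested genes, called below 0.05). Log2 fold changes are KO over WT. The floor is 3 counts, and it covers counting error only. GENCODE vM1 (mm9) gave positions, exonic lengths and GC (14931 of the tested genes, 93.8%). Figures used Python 3.11.15 and matplotlib 3.10.9.

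Members, parental classes, lists and pairs were chosen with earlier results of these data known. Values in each library are given for members of at least 5 CPM on average or with an unadjusted p below 0.05, and other members by counts or means. In the lists of imprint maintenance factors and of other imprinted genes, those with an unadjusted p below 0.05 are named. Dnmt1 and Zfp57 were added after their values were seen. Alternatives were DESeq2 1.42.0, limma-voom (limma 3.58.1), other scalings and filters, the replicate number as a block, a covariate for libraries with more than 100 Xist counts, offsets fitted in each library to exonic length and GC, an adjusted p below 0.1, other priors for the ratios and leaving out each library. The scripts were tested on simulated data.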

Additional observations from a re-analysis of the deposited data

How the results depend on the processing

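Of the 39 tested members, 20 kept the sign of their fold change under every alternative run, among them Gnas (-0.69 to -0.27), Grb10 (-0.40 to -0.22), Kcnq1ot1 (-1.55 to -0.90), Zim1 (-1.19 to -0.43) and Mest (-0.89 to -0.30). The other 19, none of them called, changed sign under at least 1. Members called were 3 in DESeq2 and 1 (Gnas) at an adjusted p below 0.1, and 0 under each other alternative, leaving out each library included. Members higher at an unadjusted p below 0.05 were 3 in edgeR, 0 in DESeq2 and 0 with library sizes without the 10 most abundant genes (5.01% of all tested genes). All genes called were 27 in edgeR, 552 in DESeq2, 132 at an adjusted p below 0.1, and 0 in limma-voom, with the replicate block, with the length and GC offsets and with the Xist covariate. Leaving out 1 library gave 0 to 89 calls, with 89 without WT replicate 3, 5 without KO replicate 1 and 0 without each other library. Calls among the imprint maintenance factors, with those over all genes in brackets, were 5 in DESeq2 (552) and 2 with no low-count filter (34). They were 2 at an adjusted p below 0.1 (132) and 1 with at least 1 CPM in 3 libraries (37). With library sizes without the 10 most abundant genes there was 1 (33). Leaving out 1 library gave 0 to 2, with 2 without WT replicate 3 (89). Among the other imprinted genes DESeq2 called 1. The paternal median was -0.24 with the Xist covariate, in which KO replicate 1 alone is compared with WT, and the maternal median was -0.14 for broad imprinting only and -0.01 to 0.17 when leaving out 1 library. The cause of these shifts was not tested.

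Deviations of same-numbered WT and KO libraries correlated at 0.184, 0.0391 and 0.0531 over the tested genes, and WT replicate 2 correlated better with KO replicate 3 (0.0637) than with its own number, so the numbers were not taken to pair the samples. With the replicate block 0 members and 0 of all tested genes were called. Gnas had an adjusted p of 0.209 in that edgeR fit, and the medians were -0.11 (paternal) and 0.12 (maternal). Depth limits the 9 members left out by the filter and those of a few CPM or less.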

Other observations

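Of 30 further genes described as imprinted in mice, 26 were tested and 0 were called in edgeR (adjusted p below 0.05). DESeq2 called 1, higher in KO, where it called 1.21% of its genes higher. With an unadjusted p below 0.05 there were 2 lower genes (7.69%, against 9.38% of all tested genes) and 4 higher genes (15.4%, against 6.99%), and the median log2 fold change was 0.05. No KO library overlapped WT for Gatm, the first enzyme of creatine synthesis, at 78.6, 59.4 and 74.5 CPM in WT and 111, 117 and 90.4 in KO (KO/WT log2 change 0.58, SE 0.14, adjusted p = 0.152), and Qpct, which forms the N-terminal pyroglutamate of peptide hormones, at 4.41, 5.79 and 6.52 CPM in WT and 11.1, 9.04 and 7.23 in KO (KO/WT log2 change 0.71, SE 0.21, adjusted p = 0.203). Tssc4 of the Kcnq1 domain had a KO/WT log2 change of 0.27 (SE 0.08, adjusted p = 0.212) and the protease inhibitor gene Tfpi2 one of 0.85 (SE 0.32, adjusted p = 0.269). The cyclic AMP phosphodiesterase gene Pde4d was at 9.01, 9.92 and 8.48 CPM in WT and 6.66, 7.14 and 5.77 in KO (KO/WT log2 change -0.49, SE 0.14, adjusted p = 0.184), and Cobl, an actin nucleator gene beside Grb10, was at 11.0, 10.5 and 13.2 CPM in WT and 8.59, 8.28 and 9.61 in KO (KO/WT log2 change -0.39, SE 0.13, adjusted p = 0.231), each lower in every KO library.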
